A study of Gallus gallus with 10 samples.

Results

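Solute carriers are the membrane proteins that move amino acids, sugars, ions, metals and metabolites into and out of cells and organelles, and their genes carry symbols that start with SLC and a family number. The genes described here are those whose symbol in the deposited count table begins in that way and whose counts summed to 10 or more over all 10 libraries. By this rule 89 genes were members, out of 292 genes with such a symbol and 29558 genes in the table. They were thus chosen by the summed count of both ages. RNA was sequenced from the magnum, the egg-white-secreting part of the oviduct, in broiler breeder hens (Gallus gallus). Hens of 50 weeks (labelled Aged, 5 hens), in declining production by the series' design, were compared with hens of 35 weeks (labelled Young, 5 hens), at the peak of production. Each library came from the whole tissue of a bird with its own number while an egg was in the magnum, and no other treatment or genotype was given in the labels. The sample titles also name the shell gland, a later oviduct segment, whereas the tissue label names the magnum.

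Carriers work by binding their substrate on one face of a membrane and releasing it on the other, often with sodium, proton or chloride ions moving along or against it. A secreting gland draws amino acids and glucose from the blood through carriers on the plasma membrane. In the endoplasmic reticulum and Golgi, members of the SLC35 family bring in the nucleotide sugars from which glycoproteins are built, and in mitochondria the SLC25 family exchanges metabolites across the inner membrane. The roles given below are those known from mammals.

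Library totals lay between 188271 and 258195 counts. Counts were scaled to CPM, a count relative to the library's total, with TMM factors, which correct for differences in RNA composition between libraries. A gene without a count may still have had up to 11.6 to 16 CPM in different libraries, by counting error alone. The first principal component set replicate 4 of the 50-week hens and replicates 1 and 2 of the 35-week hens apart from the other 7 libraries. These 3 libraries also had the highest summed CPM of 8 fibroblast markers (all 8 counted, most of all COL6A2, with 533 counts, where COL1A1, COL1A2 and COL3A1 had 9 to 11), at 461 to 893 CPM against 32.1 to 247 CPM in the other 7. Among the tissue markers, the 8 of the magnum tubular gland, such as ovalbumin (OVAL), were all counted and summed to 27200 to 41300 CPM at 50 weeks and 41300 to 55100 CPM at 35 weeks. Of these 8, 7 had lower values at 50 weeks with an unadjusted p under 0.05 in edgeR's test, beside 6.03% of all tested genes. Of the same 8, 0 passed the adjusted threshold, and their part in the carrier values was not tested. Of 9 shell gland markers, 5 were at 0 in every library, among them CALB1 and SPP1, and the list summed to 17.3 to 39.3 CPM at 50 weeks and 0 to 49.7 CPM at 35 weeks. In whole tissue, fewer cells of a type and less RNA per cell cannot be told apart.

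No carrier gene passed an adjusted p under 0.05 between the ages. Enough counts to be tested were present for 25 of the 89 members, and edgeR's quasi-likelihood test, adjusted by the Benjamini-Hochberg method over all 1773 tested genes, called 0 of these 25, with adjusted p between 0.301 and 0.988. The same test called 1 gene of all those tested (0.0564%). DESeq2 and limma with sample weights also called 0 of the members, where they called 1.07% and 0.677% of all tested genes. DESeq2 gave no adjusted p for SLC30A7 and SLC15A5, so it could not call them, and its share is of all tested genes, with or without an adjusted p. At an unadjusted p under 0.05 DESeq2 and limma each had 2 members, SLC18A1 and SLC35A5. The background was 10.0% of all tested genes in DESeq2 and 14.3% in limma. In edgeR 3 members had an unadjusted p under 0.05, SLC18A1 with higher values at 50 weeks and SLC35A5 and SLC2A1 with lower values. These are 12% of the members tested, close to the background of 10.5% over all tested genes (4.46% higher and 6.03% lower at 50 weeks). The count of 3 became 1, which was SLC35A5, on leaving out any of 6 single libraries, namely replicates 1, 2 and 5 of the 50-week hens and replicates 1, 2 and 4 of the 35-week hens, beside 7.62% to 11.3% of all tested genes in those fits. It was 2 without the 3 libraries that stood apart, a setting chosen after the data were seen, beside 14.8% of all tested genes. Positive and negative log2 fold changes (50 weeks over 35 weeks) were found for 13 and 12 members. Their median was 0.02, beside 0.0065 over all tested genes in the same fit. Without the 3 libraries that stood apart the members' median was 0.11, and no median over all genes is given for that fit. In edgeR's fit with all libraries the members' fold changes lay between −0.93 and 0.57 with standard errors (SE) of 0.15 to 0.63. For 17 of the 25 the fold change was within 1 SE of 0 (68.0%, beside 58.7% of all tested genes). The remaining 64 members, with summed counts of 10 to 106, did not pass the filter on low counts of that test. Relative to the library totals, 31 of them had the larger part of their counts at 50 weeks and 33 at 35 weeks.

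The share of the libraries held by the carriers as a family differed between the ages by less than the spread between hens. All 89 members together took 0.561% ± 0.0441 of a library's counts at 50 weeks and 0.56% ± 0.0552 at 35 weeks (SD, n = 5 each), with single libraries between 0.509% and 0.622% at 50 weeks and between 0.478% and 0.617% at 35 weeks. The mitochondrial SLC25 class had the most counts, at 0.116% ± 0.0297 in hens of 50 weeks and 0.114% ± 0.0283 in hens of 35 weeks. Sugar carriers took 0.101% ± 0.0183 and amino acid carriers 0.0809% ± 0.026 at 50 weeks, where the values at 35 weeks were 0.102% ± 0.0157 and 0.0792% ± 0.0349. Nucleotide sugar carriers took 0.0878% ± 0.0195 at 50 weeks and 0.0899% ± 0.00464 at 35 weeks. This class was set by the SLC35 family name. It includes SLC35G2, whose substrate is not established, with 771 of the 1925 counts of the class. Ion and bicarbonate carriers took 0.0466% ± 0.00433 at 50 weeks and 0.0428% ± 0.00471 at 35 weeks, and metal carriers 0.024% ± 0.00612 at 50 weeks and 0.0247% ± 0.00141 at 35 weeks. In each of the 6 named classes, and in the class of remaining substrates, the difference between the means was smaller than the SD of at least 1 of the ages, and the libraries of both ages overlapped.

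**Figure D1:**
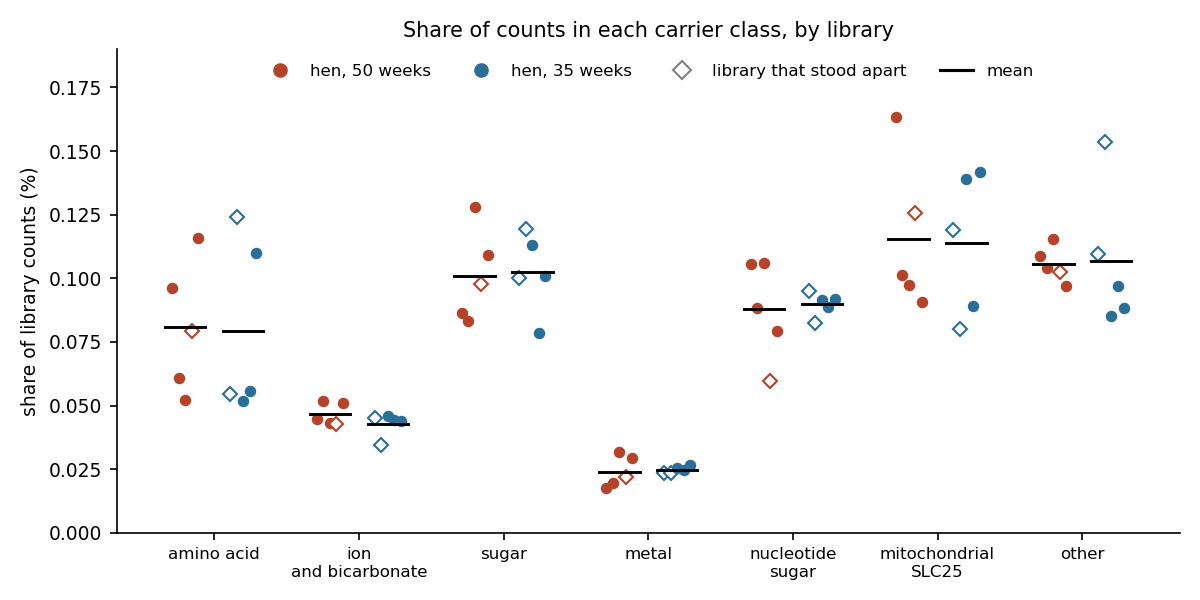
Share of all counts of a library (%, y axis) held by the members of each carrier class (x axis), with 1 point per hen, 50 weeks left of 35 weeks, open diamonds for the 3 libraries that stood apart and a line for the mean. The ages overlap in every class, and the mitochondrial class ranges from 0.0906% to 0.163% at 50 weeks and from 0.0801% to 0.142% at 35 weeks.

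SLC35A5, a Golgi protein of the nucleotide sugar carrier family, was the member whose ages did not overlap in CPM. It had 49.1, 45.1, 33.7, 42.5 and 56.3 CPM in hens of 50 weeks, against 81.3, 78.0, 58.8, 116 and 64.1 CPM in hens of 35 weeks. The highest hen at 50 weeks lay just below the lowest hen at 35 weeks. In unscaled counts the ages overlapped, with 10, 10, 8, 11 and 13 in hens of 50 weeks and 18, 18, 11, 24 and 12 in hens of 35 weeks. At such counts, counting error alone gives an SD of 27.2% of the mean. The difference was −0.82 on the log2 scale (SE 0.28, unadjusted p = 0.0114, adjusted p = 0.301 in edgeR's test), and the unadjusted p stayed under 0.05 in all 18 other fits, with adjusted p between 0.214 and 0.59. It was 1 of the 89 members (1.12%), where 1.25% of all genes with a summed count of 10 or more had ages that did not overlap. Among tested genes it was 1 of the 25 members, where 1.64% of all tested genes had such ages. SLC35A5 lies on chromosome 1 at 83820807 to 83832997 (GRCg7b), with ATG3 within 1 kb, and ATG3 had 10 counts in all.

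SLC2A1, the glucose carrier GLUT1 that many cells use for basal uptake, had lower values at 50 weeks in most hens. It had 73.6, 72.2, 118, 69.6 and 56.3 CPM in hens of 50 weeks and 140, 147, 69.5, 126 and 102 CPM in hens of 35 weeks. Replicate 3 at 50 weeks and replicate 3 at 35 weeks went against the other hens of their age, so the ages overlapped. The log2 fold change of −0.59 (SE 0.27) had an unadjusted p of 0.0473 and an adjusted p of 0.471 in edgeR's test. The unadjusted p of SLC2A1 was under 0.05 in 4 of the 18 other fits. Without the 3 libraries that stood apart the log2 fold change was −0.31 (adjusted p = 0.742). SLC2A1 lies on chromosome 21 at 6443561 to 6458116 and overlaps ZMYND12. That gene had 3278 counts, where SLC2A1 had 213, and its own log2 fold change was −0.93 (SE 0.54) with an adjusted p of 0.611. ZMYND12 had 612 counts in replicate 4 at 50 weeks and 129 to 187 in the other hens of that age, and 1035 counts in replicate 2 at 35 weeks and 173 to 345 in the others. Whether reads of ZMYND12 entered the count of SLC2A1 was not tested.

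SLC18A1, a vesicular monoamine carrier of neuroendocrine cells, had higher values at 50 weeks. It had 221, 226, 206, 128 and 225 CPM in hens of 50 weeks, against 108, 121, 118, 136 and 208 CPM in hens of 35 weeks. A single hen of each age lay with the other age, replicate 4 at 50 weeks and replicate 5 at 35 weeks. This gave 0.54 on the log2 scale (SE 0.24, unadjusted p = 0.0374, adjusted p = 0.45 in edgeR's test), and leaving out single libraries moved it between 0.47 and 0.73. The unadjusted p of SLC18A1 was under 0.05 in 10 of the 18 other fits. SLC18A1 lies on chromosome 22 at 1764183 to 1770578. It overlaps TTI2 (26 counts in all, against 370 for SLC18A1) and has MAK16 (84 counts) within 1 kb.

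**Figure D2:**
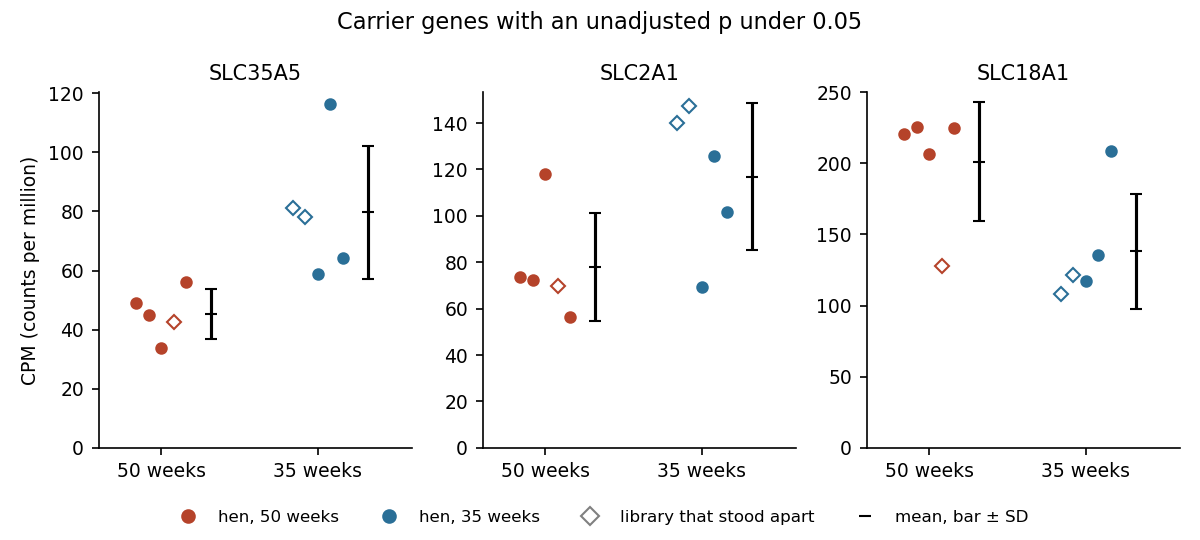
CPM (y axis) of SLC35A5, SLC2A1 and SLC18A1 in each hen at 50 and 35 weeks (x axis), with open diamonds for the 3 libraries that stood apart and bars for the mean ± SD of 5 hens. SLC35A5 has all 5 hens at 50 weeks at or below 56.3 CPM and all 5 at 35 weeks at or above 58.8 CPM, while the other genes overlap.

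Amino acid carriers had 16 members, of which 3 were tested, all 3 with positive fold changes within 1 SE of 0. SLC3A1, the heavy subunit that brings the cystine and basic amino acid carrier to the membrane, had 662, 293, 177, 340 and 675 CPM in hens of 50 weeks and 108, 442, 251, 252 and 727 CPM in hens of 35 weeks. High and low hens occurred at both ages (log2 fold change 0.27, SE 0.50). Its coefficient of variation (CV, the SD over the 10 libraries as a percentage of their mean) was 56.7%, where counting error alone gives 10.8%. SLC7A9, the light subunit that pairs with SLC3A1, had 7 counts in all at 50 weeks and 7 at 35 weeks. SLC6A20, a proline carrier, averaged 129 ± 38.8 CPM in hens of 50 weeks and 123 ± 16.4 CPM in hens of 35 weeks (SD, n = 5 each, log2 fold change 0.05, SE 0.23). SLC15A5, of the peptide carrier family, averaged 43.9 ± 7.68 CPM in hens of 50 weeks and 40.5 ± 15.3 CPM in hens of 35 weeks. SLC15A5 is among the 2 tested members with no other annotated gene overlapping or within 1 kb.

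Of the amino acid carriers that did not pass the filter on low counts, 3 are described here, and SLC38A1 and SLC1A2 further on. These 3 were chosen for their known roles after their values were seen, and stand for no wider group. SLC38A1 and SLC1A2 had more counts in all (106 and 103) than the tested SLC15A5 (92), but most of them in a few libraries. SLC7A5, the carrier of large neutral amino acids, had 1 to 7 counts per library at 50 weeks and 1 to 7 at 35 weeks. SLC38A2, a sodium-coupled glutamine and alanine carrier, had 1 to 9 counts at 50 weeks and 3 to 11 at 35 weeks. SLC7A3, a carrier of arginine and lysine, had 0, 5, 6, 1 and 5 counts in hens of 50 weeks and 1, 0, 1, 2 and 0 in hens of 35 weeks. It was too thinly counted for the main test. In edgeR's fit without a filter on low counts its unadjusted p was 0.0265 and its adjusted p 0.581, and that fit gave 5 of the 89 members an unadjusted p under 0.05, beside 5.86% of all genes, and called 0 of them, beside 0.228%. Where genes needed at least 1 CPM in 5 libraries, 5 members had an unadjusted p under 0.05, beside 7.27% of all genes, and 0 were called, beside 0.506%.

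Ion and bicarbonate carriers had 13 members and 1 tested gene. SLC24A5, a potassium-dependent sodium and calcium exchanger known from pigment cells, had 280, 320, 211, 201 and 299 CPM in hens of 50 weeks and 257, 186, 283, 170 and 288 CPM in hens of 35 weeks (log2 fold change 0.14, SE 0.21). It held 541 of the 974 counts of its class and overlaps MYEF2, which had 17 counts. SLC8A3, a sodium and calcium exchanger, had 4 to 9 counts per library at 50 weeks and 3 to 21 at 35 weeks. SLC4A3, an exchanger of chloride for bicarbonate, had 3 to 12 counts at 50 weeks and 1 to 8 at 35 weeks. SLC9A8, a sodium and proton exchanger, had 5 to 9 counts at 50 weeks and 3 to 8 at 35 weeks. SLC12A2, the sodium, potassium and chloride cotransporter that drives fluid secretion in many glands, had 5 to 9 counts at 50 weeks and 3 to 7 at 35 weeks. SLC26A9 and SLC24A4, carriers in the shell gland marker list, had no count in any library.

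Sugar carriers had 11 members and 4 tested genes, of which SLC2A1 was described above. SLC2A11L5, a gene of the glucose carrier family and the most counted member with 964 counts, had 393, 356, 505, 406 and 463 CPM in hens of 50 weeks and 420, 520, 588, 257 and 518 CPM in hens of 35 weeks. The ages overlapped across most of their range (log2 fold change −0.12, SE 0.20). SLC45A1, a proton-coupled sugar carrier, averaged 281 ± 62 CPM in hens of 50 weeks and 277 ± 73.7 CPM in hens of 35 weeks. SLC5A10, a sodium-coupled mannose and fructose carrier, averaged 56.8 ± 15.9 CPM in hens of 50 weeks and 59.7 ± 16.3 CPM in hens of 35 weeks. Among the untested members, SLC37A4, which carries glucose 6-phosphate into the endoplasmic reticulum, had 54 counts at 50 weeks and 43 at 35 weeks.

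Metal carriers had 11 members, and their 2 tested genes had fold changes of opposite sign. SLC30A7, which loads zinc into the Golgi, had 49.1, 54.1, 67.4, 42.5 and 64.9 CPM in hens of 50 weeks and 22.6, 26.0, 58.8, 33.9 and 48.1 CPM in hens of 35 weeks. Its log2 fold change of 0.57 (SE 0.33, adjusted p = 0.586) was the highest of all tested carriers, and without the 3 libraries that stood apart it was 0.34. DPH5, within 1 kb of SLC30A7, had 5608 counts, where SLC30A7 had 102, and its fold change was 0.02 on the log2 scale (SE 0.13). SLC39A8, a zinc and manganese importer, averaged 84.6 ± 41.8 CPM in hens of 50 weeks and 103 ± 17.8 CPM in hens of 35 weeks (log2 fold change −0.28, SE 0.31). SLC39A10, a zinc importer, had 1, 5, 7, 12 and 6 counts in hens of 50 weeks and 2, 4, 5, 3 and 2 in hens of 35 weeks. SLC40A1, the iron exporter ferroportin, had 20 counts in all at 50 weeks and 19 at 35 weeks.

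SLC39A13, a zinc carrier of the early secretory pathway, was the 1 carrier in the authors' deposited table of 203 genes. It had 0, 0, 0, 0 and 2 counts in hens of 50 weeks and 2, 4, 3, 3 and 0 in hens of 35 weeks. The authors' deposited table gives it a log2 fold change of 2.68 with a standard error of 1.35 and a p of 0.0473, without an adjusted p. That fold change runs 35 weeks over 50 weeks, as do those of all 203 genes of the table when set against the counts, so it means fewer counts at 50 weeks. In edgeR's fit without a filter on low counts its unadjusted p was 0.0141 and its adjusted p 0.581.

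Nucleotide sugar carriers had 9 members and 3 tested genes, all 3 with negative fold changes, of which those of SLC35D1 and SLC35G2 were within 1 SE of 0. Relative to the library totals, 6 of the 9 members had the larger part of their counts at 50 weeks and 3 at 35 weeks. SLC35D1, which carries UDP-glucuronic acid and UDP-N-acetylgalactosamine into the endoplasmic reticulum, had 491, 374, 522, 166 and 329 CPM in hens of 50 weeks and 375, 317, 471, 364 and 395 CPM in hens of 35 weeks. Replicate 4 at 50 weeks was the lowest of all 10 hens, and the log2 fold change of −0.03 (SE 0.25) became 0.17 without it. SLC35G2, a relative whose substrate is not established, averaged 349 ± 46.9 CPM in hens of 50 weeks and 359 ± 35 CPM in hens of 35 weeks (log2 fold change −0.04, SE 0.15). Its CV over the 10 hens was 11.1%, where counting error alone gives 11.4%, the lowest CV of any tested carrier. SLC35A1, which brings CMP-sialic acid into the Golgi, had 4 to 11 counts at 50 weeks and 2 to 10 at 35 weeks. SLC35A3, a carrier of UDP-N-acetylglucosamine, had 7 counts in all at 50 weeks and 6 at 35 weeks.

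Mitochondrial carriers had 14 members and 6 tested genes, 4 with positive and 2 with negative fold changes. SLC25A25, which exchanges ATP-magnesium for phosphate, had 584, 361, 316, 151 and 190 CPM in hens of 50 weeks and 298, 186, 727, 184 and 524 CPM in hens of 35 weeks (log2 fold change −0.26, SE 0.46). SLC25A47, known from liver mitochondria, had 505, 153, 156, 510 and 160 CPM in hens of 50 weeks and 461, 204, 348, 179 and 417 CPM in hens of 35 weeks (−0.11, SE 0.44). Both genes varied widely between the hens of each age, and their CVs of 56.0% and 49.7% were far above the 11.5% and 12.2% of counting error. SLC25A26, the carrier of S-adenosylmethionine, averaged 180 ± 44.5 CPM in hens of 50 weeks and 142 ± 63.3 CPM in hens of 35 weeks (0.34, SE 0.31). SLC25A12, an aspartate and glutamate exchanger, averaged 95.1 ± 26.1 CPM in hens of 50 weeks and 85.9 ± 23.4 CPM in hens of 35 weeks (0.13, SE 0.27). SLC25A48 averaged 87.3 ± 31.6 CPM in hens of 50 weeks and 62.8 ± 20.1 CPM in hens of 35 weeks (0.48, SE 0.32). SLC25A22, a glutamate carrier, had a fold change within 1 SE of 0.

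A few untested mitochondrial carriers are given for their known roles, chosen after their values were seen. SLC25A6 and SLC25A4, which exchange ADP for ATP, had 19 and 17 counts in all at 50 weeks and 26 and 17 at 35 weeks. SLC25A3, the phosphate carrier, had 17 counts at 50 weeks and 16 at 35 weeks. SLC25A24, a relative of SLC25A25, had 27 counts in replicate 4 at 50 weeks, 0 to 3 in the other 4 hens of that age and 2 to 3 in the 5 hens of 35 weeks.

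**Figure D3:**
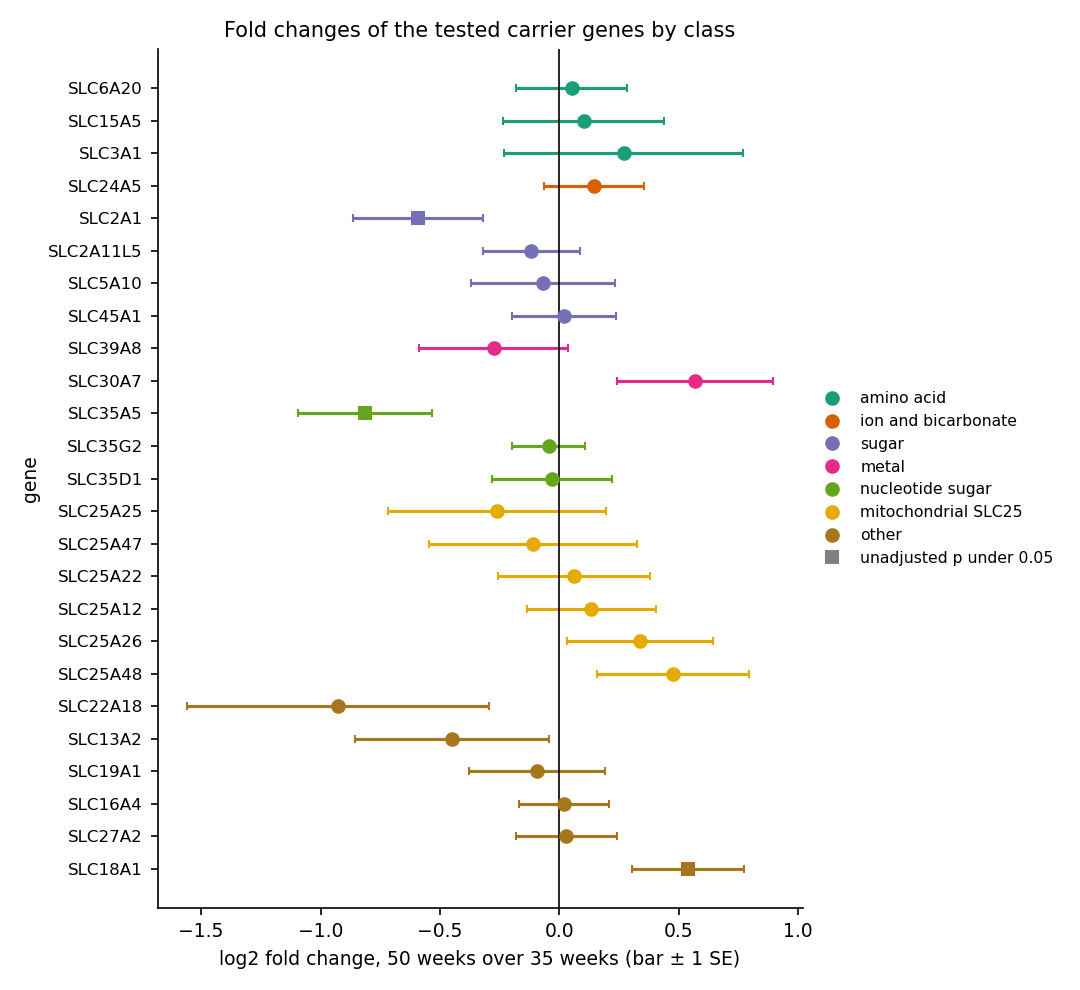
Log2 fold change (x axis, 50 weeks over 35 weeks, bars ± 1 SE) of the 25 tested carrier genes (y axis), coloured by class, with squares for an unadjusted p under 0.05. The values lie on both sides of 0 in the sugar, metal, mitochondrial and remaining classes, and none passed the adjusted threshold.

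The remaining 15 members carry other substrates, and 6 were tested, 3 positive and 3 negative, SLC18A1 among them. SLC27A2, which takes up and activates very long chain fatty acids, averaged 239 ± 20.8 CPM in hens of 50 weeks and 233 ± 64.8 CPM in hens of 35 weeks (log2 fold change 0.03, SE 0.21). SLC16A4, of the monocarboxylate carrier family, averaged 204 ± 38.9 CPM in hens of 50 weeks and 201 ± 17.8 CPM in hens of 35 weeks (0.02, SE 0.19). SLC19A1, the reduced folate carrier, had 182, 226, 270, 178 and 160 CPM in hens of 50 weeks and 239, 373, 128, 204 and 128 CPM in hens of 35 weeks. Its log2 fold change of −0.09 (SE 0.29) became 0.44 without the 3 libraries that stood apart. SLC13A2, a sodium-coupled carrier of citrate and of dicarboxylates, averaged 44.2 ± 26.6 CPM in hens of 50 weeks and 60.7 ± 23.5 CPM in hens of 35 weeks (−0.45, SE 0.41). It was the second tested member without a near neighbour.

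Some carriers differed between hens of the same age by more than the ages differed. In 6 members the 3 libraries that stood apart held the 3 highest counts (6.74% of the members, beside 3.89% of all genes with a summed count of 10 or more). These libraries had totals of 223298, 234824 and 258195 counts, and the 6 were picked for this order, so it is given as a description. SLC38A1, a glutamine carrier, had 28 counts in replicate 4 at 50 weeks and 3 to 6 in the other hens of that age, and 12 and 42 counts in replicates 1 and 2 at 35 weeks with 2 to 3 in the others. SLC1A2, a glutamate carrier of glia, reached 10 counts in replicate 4 of the 50-week hens, whose others had 1 to 3, and 10 and 71 in replicates 1 and 2 of the 35-week hens, whose others had 0 to 3. SLC22A18, of the organic cation carrier family, had 158 CPM in replicate 4 at 50 weeks and 54.1 to 101 CPM in the other 4 hens, and 140 and 503 CPM in replicates 1 and 2 at 35 weeks with 37.4 to 92.1 CPM in the other 3. Its log2 fold change of −0.93 was the lowest of all tested carriers and had the largest SE (0.63), and it was 0.06 without replicate 2 at 35 weeks and 0.08 (SE 0.38) without the 3 libraries. The other members with this order of counts were SLC39A9, SLC25A29 and SLC25A36, the last 2 with at most 9 and 3 counts in any library. SLC39A9, a zinc carrier, had 3 to 7 counts at 50 weeks and 5 to 8 at 35 weeks. Its order did not hold in CPM, with 29.09 in replicate 4 at 35 weeks and 27.05 in replicate 4 at 50 weeks. The summed fibroblast markers, mostly COL6A2, were highest in the same 3 libraries. In these libraries the summed markers of ciliated epithelium were at 56.4 to 143 CPM, against 139 to 226 CPM in the other 7, and the list of pumps, channels and enzymes described below at 1210 to 1330 CPM, against 775 to 984 CPM. The part of these differences in the carrier values was not tested.

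**Figure D4:**
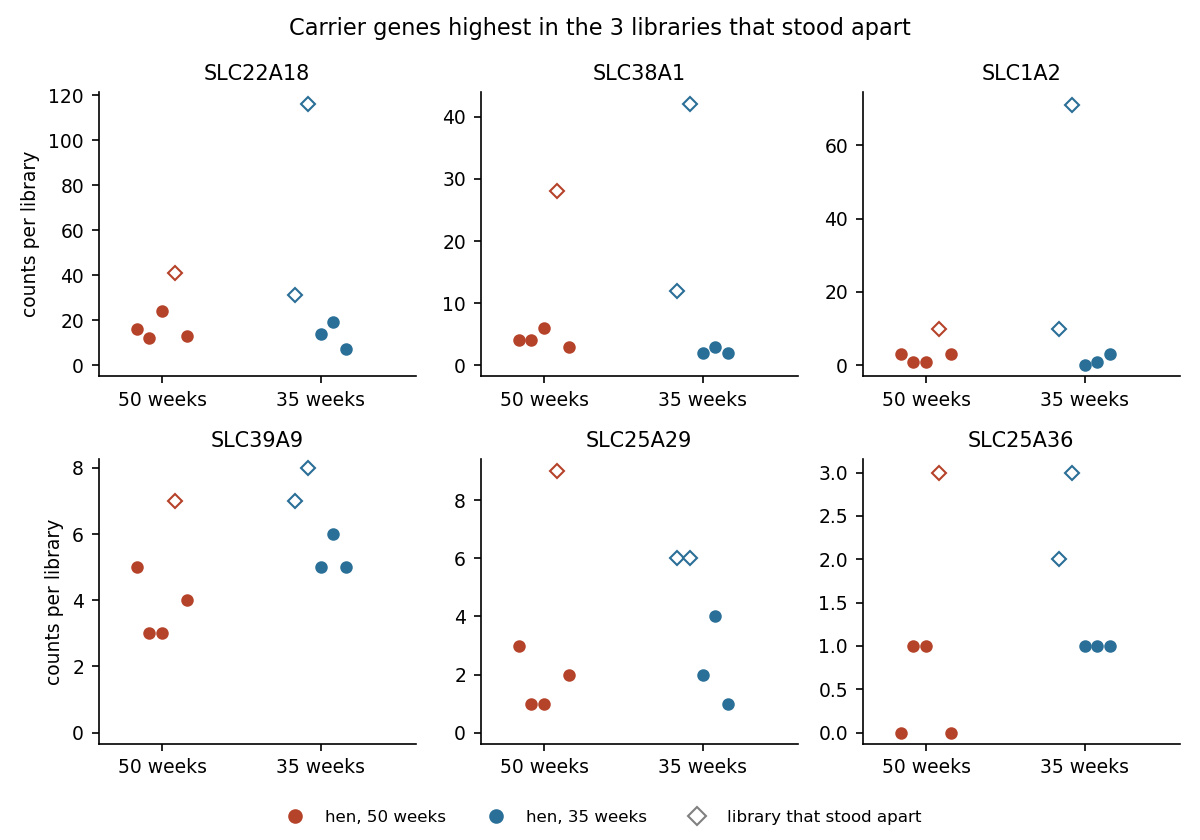
Counts per library (y axis) of the 6 carrier genes whose 3 highest counts fell in the 3 libraries that stood apart (open diamonds), for each hen at 50 and 35 weeks (x axis). SLC1A2 reaches 71 counts in replicate 2 at 35 weeks, while the 7 other libraries (filled points) have 0 to 3.

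Over all 25 tested members, the CV was under 1.5 times that of counting error in 10 and over 2 times in 8. The median CV was 30%, beside 29.4% over all tested genes.

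Most carriers lie next to other genes. In the RefSeq table of the same build, 72 of the 89 members had a gene overlapping or within 1 kb, 23 of the 25 tested members among them, and 17 had none. The labels name a strand-marking library kit but not the strand setting of the counting, so a member's count may hold reads of such a neighbour. In 14 members a neighbour had more counts than the member itself, and SLC2A1 and SLC30A7 were the 2 tested genes among them. For 34 members, 5 of them tested (SLC25A25, SLC19A1, SLC16A4, SLC25A48 and SLC25A22), at least 1 neighbour was not matched to a symbol in the count table, so its counts could not be compared. SLC37A4, with 97 counts, lies within 1 kb of TRAPPC4, with 9386, and SLC5A3, with 10 counts, overlaps MRPS6, with 2194. Several of the most counted members had more counts than the neighbours that could be compared: SLC3A1 had 847 and the overlapping PREPL 66, SLC35D1 had 819 and MIER1 34, and SLC25A47 had 672 and the overlapping WARS 3. With the strand setting unknown, a low count of a neighbour does not show whose reads the member's count holds. A neighbour's row would also be low if its reads had been counted under the member. The same limit holds for the neighbours of SLC35A5, SLC18A1 and SLC24A5 given above.

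Counts were concentrated in few members. The 10 most counted held 56.8% of the 12223 counts of all members. These counts were not corrected for transcript length and may hold reads of neighbouring genes, so their order need not be that of carrier abundance. A count in all 10 libraries was found for 52 members, and the median summed count was 42. Of the SLC symbols that were no members, 129 had 1 to 9 counts and 74 had none, and together they held 3.6% of the counts of SLC genes. Just inside the limit of 10 were SLC11A2 and SLC17A9 with 11 counts each, and just outside were SLC12A4 with 9 and SLC12A5 with 8.

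Genes that act beside the carriers did not pass either. Of 47 pumps, channels and enzymes that set the gradients carriers use, 43 were in the table and 4 were tested, 2 positive and 2 negative (median log2 fold change −0.02), with 0 called and 0 at an unadjusted p under 0.05. ATP1B1, a beta subunit of the sodium pump, averaged 67.5 ± 15.4 CPM in hens of 50 weeks and 66.6 ± 32.1 CPM in hens of 35 weeks (log2 fold change 0.02, SE 0.35). AQP11, an intracellular water channel, averaged 526 ± 49.2 CPM in hens of 50 weeks and 548 ± 77.8 CPM in hens of 35 weeks (−0.06, SE 0.15). Of 36 transporters named by other systems, 4 were tested, again 2 positive and 2 negative with 0 at an unadjusted p under 0.05. SLCO2A1, the prostaglandin carrier, averaged 672 ± 358 CPM in hens of 50 weeks and 1165 ± 574 CPM in hens of 35 weeks (−0.79, SE 0.46, adjusted p = 0.593). CTNS, which exports cystine from lysosomes, averaged 359 ± 60.3 CPM in hens of 50 weeks and 321 ± 50.5 CPM in hens of 35 weeks (0.16, SE 0.18). Of 20 symbols of aminoacyl-tRNA synthetases looked for, 8 had a row in the table and 0 of these 8 were tested, and synthetases under other symbols, such as WARS and RARS2, were not on that list.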

How the data were processed

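Per the labels' protocols, total RNA of whole magnum was extracted with TRIzol, kept at an RNA integrity number above 7, and made into libraries with a directional kit. Trimmomatic, HISAT2, Cufflinks, DESeq2 and the build GRCg7b are named in the submitters' processing notes, and for the read counter and its strand setting no statement was found (not given in the sources used here). Raw whole-number counts were deposited by the authors, per gene, for 10 libraries. A second deposited table has, per the file headers, the column names of DESeq2. Its log2 fold changes and standard errors, its p-values, its mean normalised counts (a signal scale) and its Wald score are the authors' own, and the score was not used.

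Members were placed in substrate classes by SLC family. The members, lists and rule for naming genes (all with an unadjusted p under 0.05, the 4 most counted of each class, the 6 most counted of all, those in the authors' table, those whose ages do not overlap with 50 or more counts) were chosen with earlier results of these data known. Some members outside this rule were also described, such as SLC12A2, SLC37A4, SLC40A1, SLC35A3 and SLC7A9. They were chosen after their values were seen and stand for no wider group. A class pattern that had put SLC45 and other SLC4x families under ions was corrected after the counts were seen. Ages were compared in R 4.3.3 with edgeR 4.0.16 (a minimum count of 10 in filterByExpr, TMM, robust glmQLFit and glmQLFTest, two-sided), with 5 hens per age, age as the one term, an adjusted p threshold of 0.05 and a biological coefficient of variation of 0.285. SEs are the fold change divided by the root of the F statistic. Libraries of 1 age differed by more than sampling noise (chi-square per degree of freedom of at least 2.66). On simulated data for the comparison of 50 with 35 weeks, 1702 genes in all, recovery was 67.6% for 2-fold and 100% for 4-fold changes, with 2.96% false among 169 calls. Every simulated gene was given the same biological coefficient of variation. With 169 calls, the adjusted threshold was also easier to pass than in the real data, where 1 gene was called. The recovery rates therefore do not give the chance of finding a change in a carrier, where SEs reached 0.63. Other fits used RLE size factors, library totals only, no filter, a CPM filter (5 libraries at 1 or above), DESeq2 1.42.0, limma 3.58.1 with sample weights, a replicate block, and leaving out libraries. Tables and figures used Python 3.11.15, pandas 2.3.3 and matplotlib 3.10.9. The result of 1 gene is not reported here.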

Additional observations from a re-analysis of the deposited data

Results flagged for a closer look

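A hen far from the other 4 of its age by Dixon's criterion was found in 12 of 118 sets of 5 libraries. The criterion flags about 1 in 20 sets of normally distributed values, which low counts are not. The sets are the members named in the text and the classes at each age, and not all members were examined. Some members, such as SLC22A18 and SLC25A24, were named after their values were seen. The number of flags therefore cannot be set against that rate. SLC38A1 had 108 CPM in replicate 4 at 50 weeks (13 to 25.3 CPM in the others) and 182 CPM in replicate 2 at 35 weeks (10.7 to 54.2 CPM). SLC1A2 had 308 CPM in replicate 2 at 35 weeks (0 to 45.2 CPM in the others). SLC22A18 had 503 CPM in replicate 2 at 35 weeks (37.4 to 140 CPM in the others), and SLC25A24 had 104 CPM in replicate 4 at 50 weeks (0 to 13.5 CPM). SLC18A1 had 128 CPM in replicate 4 at 50 weeks (206 to 225 CPM) and 208 CPM in replicate 5 at 35 weeks (108 to 136 CPM). SLC2A1 had 118 CPM (56.3 to 73.6 CPM in the others) and SLC5A10 84.2 CPM (44.2 to 54.1 CPM) in replicate 3 at 50 weeks. SLC39A13 had 8.66 CPM in replicate 5 at 50 weeks and 0 in the others. SLC8A3 had 102 CPM in replicate 4 at 35 weeks (13 to 37.4 CPM in the others). The ion and bicarbonate class held 0.0345% of counts in replicate 2 at 35 weeks and 0.0441% to 0.046% in the other hens of that age.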

How the results depend on the processing

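The count of 0 carriers past an adjusted p under 0.05 held in all 18 other fits, though DESeq2 gave no adjusted p for SLC30A7 and SLC15A5. At an unadjusted p under 0.05 there were 5 members without a filter on low counts and 5 with the CPM filter (3 higher and 2 lower in both), 1 to 3 on leaving out single libraries, and 0 among the 2 tested members with no gene within 1 kb, whose median log2 fold change was −0.17. Over all genes the count of 1 became 36 without a filter, 40 with the CPM filter, 19 with DESeq2, 12 with limma, 2 with the replicate block, 43 without the 3 libraries that stood apart (a setting chosen after seeing the data), and 1 to 12 without single libraries, the 12 without replicate 4 at 50 weeks. Same-numbered libraries were not paired (correlations of their deviations −0.115 to 0.0979, and not every library was closest to its own number). With the replicate block 2 carriers had an unadjusted p under 0.05, beside 10.0% of all tested genes. The difference in the share of counts of all members stayed between −0.0188 and 0.0248 percentage points in every setting. No sign turned for SLC35A5, SLC2A1, SLC18A1, SLC30A7, SLC39A8, SLC3A1, SLC24A5, SLC2A11L5, SLC25A26, SLC25A12, SLC25A48 or SLC13A2. Leaving out single libraries moved some of these widely, to 0.0427 and 0.70 for SLC3A1, 0.00891 and 0.305 for SLC25A12, 0.156 and 0.569 for SLC25A26, 0.0538 and 0.237 for SLC24A5, −0.504 and −0.12 for SLC39A8, −0.26 and −0.00821 for SLC2A11L5 and −0.824 and −0.248 for SLC13A2. Signs of other log2 fold changes turned as follows, and the cause was not tested. With library totals only, SLC35D1 was 0.0168. With limma, SLC5A10 was 0.0107, SLC19A1 0.147 and SLC16A4 −0.049. Without the 3 libraries, SLC5A10 was 0.0281, SLC35D1 0.0681, SLC35G2 0.0972, SLC19A1 0.442, SLC16A4 −0.0506 and SLC22A18 0.0825. On leaving out single libraries the ranges were −0.121 to 0.151 for SLC6A20, −0.0749 to 0.173 for SLC45A1, −0.251 to 0.0213 for SLC5A10, −0.179 to 0.169 for SLC35D1, −0.109 to 0.022 for SLC35G2, −0.576 to 0.108 for SLC25A25, −0.401 to 0.0633 for SLC25A47, −0.117 to 0.14 for SLC27A2, −0.224 to 0.213 for SLC19A1, −0.0238 to 0.142 for SLC16A4, −0.0805 to 0.226 for SLC15A5, −0.0414 to 0.217 for SLC25A22 and −1.24 to 0.0617 for SLC22A18. The filter on low counts kept 64 of the 89 members out of the main test, and both settings that tested all 89 called 0 of them.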
